A study of Mus musculus with 18 samples.

Results

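The genes described here encode the parts of the super elongation complex, a group of proteins that releases paused RNA polymerase II into productive transcription. They were taken by name from the deposited count table: the scaffolds Aff1, Aff3 and Aff4, the elongation factors Ell and Ell2, the YEATS-domain proteins Mllt1 (ENL) and Mllt3 (AF9), the kinase Cdk9 and its cyclins Ccnt1 and Ccnt2. These are 10 of the 32285 genes in the table, and all 10 passed the filter on low counts. The study sequenced poly(A) RNA from 18 libraries of bone marrow cells from mice, 3 in each of 6 groups. A control, the fusion BRD9-NUTM1 (BN1) and the fusion AFF1-NUTM1 (AFFN1) each have samples of day 6 and of day 14. The labels do not say whether the same cells were followed from one day to the other. The cells of all groups, controls included, were iLS cells of strain C57BL/6 that had been sorted by flow cytometry as CD45.2(+). The labels do not expand iLS, do not say what the days are counted from, and give neither the promoter that drives a fusion nor the species of its parts. They also do not say whether the 3 libraries of a group came from separate cultures or animals, so p-values measure only the spread between these libraries.

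As background, AFF-family proteins are long, flexible scaffolds that hold the other subunits together. Cdk9 and a T-type cyclin form P-TEFb, the kinase that phosphorylates the polymerase and the factors that pause it. ELL proteins raise the rate of elongation, and ENL and AF9 bind acylated histones through their YEATS domains. Several of these genes, AFF1 first among them, are known partners of KMT2A (MLL) in acute leukaemia, and AFF1 itself is joined to NUTM1 in one of the fusions studied here. The question put to the data was whether either fusion changed the RNA of the complex, and how its genes differed between the days.

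The promoters of 4 members are shown because the results turn on these genes: Aff1, the gene joined in AFFN1, Aff4 and Ccnt2, which were lower on day 14, and Mllt3, which was higher. Each is the 250 bases before the most upstream start in the RefSeq promoter table (GRCm38.p6, the patch release of mm10), read 5′ to 3′ on the gene's strand, and none holds a base of an exon of its gene in GENCODE M21. Aff1 is chr5:103753912-103754161 (plus strand), Aff4 chr11:53350517-53350766 (plus), Ccnt2 chr1:127773914-127774163 (plus) and Mllt3 chr4:88033408-88033657 (minus). The Aff1 window lies inside the GENCODE M21 span of its gene, so the most upstream GENCODE start is not shown. The other windows lie before the spans of their genes. Capitals mark matches, on either strand, to the GC box GGGCGG, the CCAAT box CCAAT and the E-box CACGTG.
Aff1: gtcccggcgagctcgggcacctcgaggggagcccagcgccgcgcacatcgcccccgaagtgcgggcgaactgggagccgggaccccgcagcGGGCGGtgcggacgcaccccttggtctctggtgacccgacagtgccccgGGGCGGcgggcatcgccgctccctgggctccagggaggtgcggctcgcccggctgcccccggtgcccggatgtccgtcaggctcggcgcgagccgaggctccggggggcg
Aff4: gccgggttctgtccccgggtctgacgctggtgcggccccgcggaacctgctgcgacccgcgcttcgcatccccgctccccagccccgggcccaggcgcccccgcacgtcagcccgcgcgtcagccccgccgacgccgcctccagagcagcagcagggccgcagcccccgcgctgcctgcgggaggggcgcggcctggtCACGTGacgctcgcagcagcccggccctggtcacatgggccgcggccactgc
Ccnt2: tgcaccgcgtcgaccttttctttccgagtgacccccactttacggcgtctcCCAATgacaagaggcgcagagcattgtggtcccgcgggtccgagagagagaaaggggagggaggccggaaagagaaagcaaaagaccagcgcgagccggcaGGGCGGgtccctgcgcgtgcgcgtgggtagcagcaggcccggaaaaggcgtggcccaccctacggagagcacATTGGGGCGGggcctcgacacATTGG
Mllt3: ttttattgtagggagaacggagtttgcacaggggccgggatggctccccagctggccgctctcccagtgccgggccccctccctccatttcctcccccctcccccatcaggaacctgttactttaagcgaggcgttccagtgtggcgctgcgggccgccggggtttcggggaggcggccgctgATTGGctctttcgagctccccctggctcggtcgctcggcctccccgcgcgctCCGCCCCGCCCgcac

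These windows were rich in G and C, with 78.8% in Aff1, 79.2% in Aff4, 64.8% in Ccnt2 and 69.2% in Mllt3. The GC box was present in 9 of the 10 member promoters and in 32.7% of 32851 promoter windows of the same length, and Aff4 was the member without it. The CCAAT box was present in 5 members, among them Ccnt2 with 3 matches, and in 33.8% of windows. The Aff4 window held the only E-box among the members (6.02% of windows), and Ell2 the only cAMP-response element, TGACGTCA (1.55%). The ETS motif CCGGAAG was found in 3 members (6.91% of windows), and the NRF1 motif (0.782%) and the TATA box TATAAA (12.4%) in 0 of 10. In Ccnt2 a CCAAT box and a GC box overlap by a base, and so do the 2 GC boxes of Mllt3. The windows behind these percentages are those of all starts in the promoter table, whether or not the gene was expressed here. Each member was scored at 1 start only, and all members were expressed. The shares among expressed genes were not taken, so these counts do not show that a motif is enriched in the members. A match is a description of these letters, not a bound site.

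The genes lie apart in the genome (mm10, GENCODE M21). Aff1 (ENSMUSG00000029313) spans chr5:103692374-103855322 on the plus strand, Aff3 (ENSMUSG00000037138) chr1:38177326-38664955 on the minus strand and Aff4 (ENSMUSG00000049470) chr11:53350833-53421830 on the plus strand. Ell (ENSMUSG00000070002) spans chr8:70539457-70592858 and Ell2 (ENSMUSG00000001542) chr13:75706757-75772364, both plus. Mllt1 (ENSMUSG00000024212) spans chr17:56892611-56935415 and Mllt3 (ENSMUSG00000028496) chr4:87769925-88033364, both minus. Cdk9 (ENSMUSG00000009555) spans chr2:32705784-32713076 and Ccnt1 (ENSMUSG00000011960) chr15:98538689-98570923, both minus, and Ccnt2 (ENSMUSG00000026349) chr1:127774164-127808061 on the plus strand.

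The libraries held 14182500 to 18383400 counts, and a member had from 189 reads (Ell2) to 4181 reads (Aff1) in a library. B-lineage genes were high in all 18 libraries: Cd79a, part of the B-cell receptor, had 620 to 4051 CPM (reads relative to library size, scaled by TMM over the 18 libraries). Ptprc, which encodes CD45, had 185 to 407 CPM. Markers of other cells were low, with 5.51 to 48.5 CPM summed over 7 T and NK genes, 16.6 to 150 over 7 myeloid, 1.5 to 39.3 over 6 erythroid and 12.8 to 142 over 8 stromal genes. Cd3e, Cd8a, Mpo and Elane were at or near 0, but other genes of their lists were not. In the day 6 BN1 library 3, 6 of the 7 T and NK genes were at 0, so the remaining gene made up its 48.5 CPM. In the day 6 control library 3, 4 of the 7 myeloid genes were at 0, and the rest made up its 150 CPM. Immediate early and stress genes summed to 744 CPM in the day 6 control library 3 and to 1735 in the day 6 BN1 library 3, against 219 to 401 elsewhere. The day 14 control and AFFN1 libraries numbered 1 had the lowest B-lineage sums of that day, 7070 and 7892 CPM, where the other 7 had 8932 to 13503. Mouse Nutm1 had at most 2 reads in any library, and Brd9 had 58.6 to 68.2 CPM on day 6 and 39.1 to 53.8 on day 14. These genes therefore do not check the fusion labels, and a gene count cannot separate Aff1 from an AFF1 part of the fusion transcript if that part maps to the mouse gene.

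Per kilobase of exon, Cdk9 was the most abundant member in 5 of the 6 groups and Ell2 the least abundant in all 6. In control cells of day 6 the order was Cdk9 (28.4 CPM per kb ± 1.22, SD, n = 3), Mllt1 (21.9 ± 2.77), Aff3 (20.02 ± 4.90), Aff1 (17.2 ± 1.64), Ccnt1 (11.0 ± 0.811), Ell (10.1 ± 0.457), Aff4 (8.68 ± 1.15), Ccnt2 (6.54 ± 0.51), Mllt3 (2.02 ± 0.29) and Ell2 (2.00 ± 0.394). In this order the libraries of the neighbours Mllt1 and Aff3, Aff3 and Aff1, Ccnt1 and Ell, Ell and Aff4, and Mllt3 and Ell2 overlapped. In control cells of day 14 Cdk9 (35.3 CPM per kb ± 3.30) and Mllt1 (34.4 ± 1.82) came first and overlapped. Ell, at 15.6 CPM per kb ± 1.39, now lay above Ccnt1 (9.74 ± 0.409), and Aff4 (5.14 ± 0.982) and Ccnt2 (3.59 ± 0.522) had come closer to Mllt3 (3.24 ± 0.665) and Ell2 (2.03 ± 0.472). In BN1 cells of day 14 Aff3 came first, at 35.5 CPM per kb ± 3.27, beside Cdk9 at 34.6 ± 3.48, which is within the spread. Ccnt2 went from 6.80 CPM per kb ± 0.608 in BN1 cells of day 6 to 4.66 ± 1.01 on day 14. With the length of the longest transcript in place of all exons, Ell2 was still last in all 6 groups, and Cdk9 came first in all 6, BN1 cells of day 14 included (44.7 CPM per kb against 39.3 for Aff3). Aff4, Ccnt2, Ell and Mllt3 also traded places. Of the members, Ccnt2 (12.3 against 7.64 kb), Mllt3 (12.0 against 6.07) and Ell2 (9.83 against 5.13) have many exon bases outside that transcript.

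**Figure D1:**
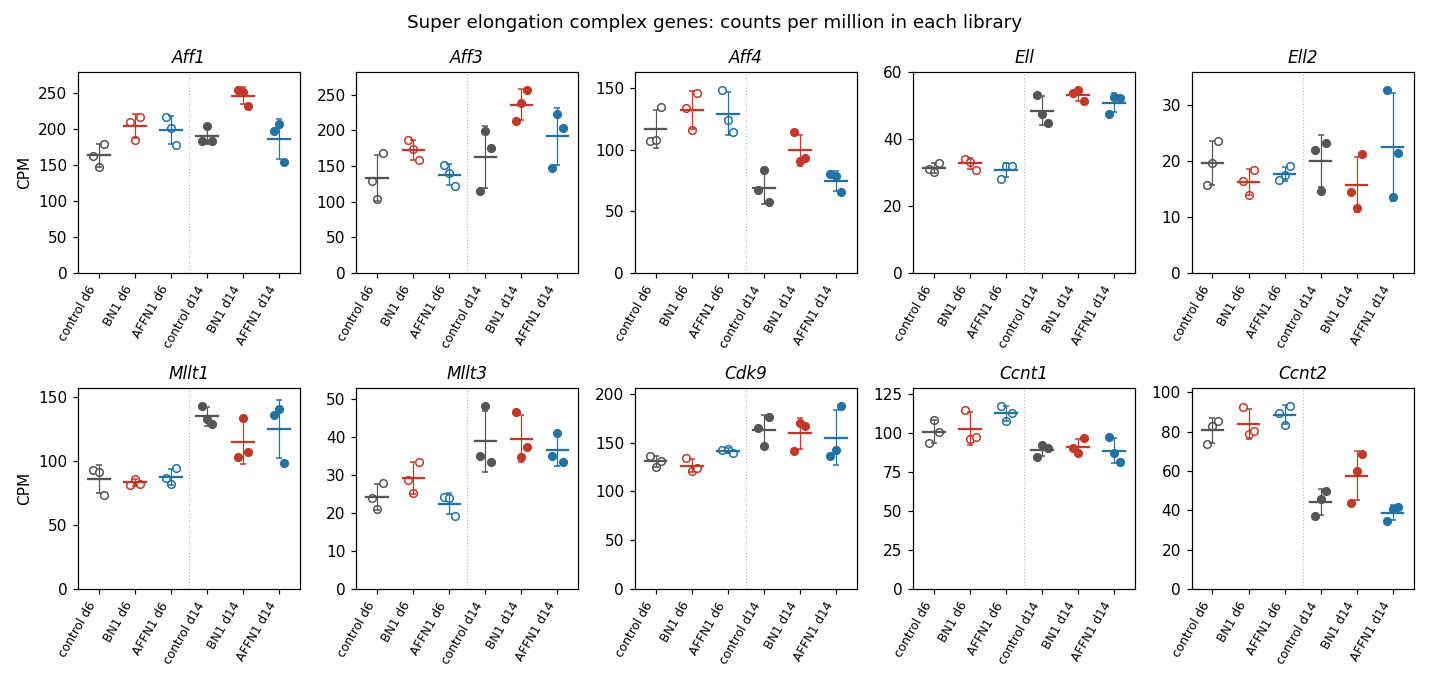
Normalised counts (CPM, linear axis from 0) of the 10 genes in each library, with open circles for day 6, filled circles for day 14, and the mean ± SD of 3 libraries as bars. Ell, Mllt1 and Mllt3 are higher and Aff4 and Ccnt2 lower on day 14, and on that day all BN1 libraries lie above all control libraries for Aff1, Aff3 and Aff4.

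Without a block for the replicate number, no member was called between a fusion and control, or between the fusions, on either day by edgeR's quasi-likelihood test (adjusted p under 0.05 over all genes tested). With the block, which the labels support on day 14, Aff3 and Aff4 were called for BN1 against control on that day. The background on day 6 was 17.4% of 12068 tested genes for BN1 against control, 12.7% for AFFN1 against control and 11.2% for BN1 against AFFN1. On day 14 it was 0.0257%, 0.0429% and 0% of 11657 genes. A count of 0 of 10 is thus little below what these backgrounds give on day 6, and on day 14 few genes were called at all without the block. With the block 11.6% of all tested genes were called for BN1 against control on day 14. The median log2 fold change of the 10 members was 0.04 for BN1 and 0.08 for AFFN1 on day 6 (all tested genes, -0.02 and -0.02), and 0.07 and -0.04 on day 14 (all tested genes, -0.0048 and -0.02). At an unadjusted p under 0.05 there were 2, 1 and 2 of 10 members in these comparisons on day 6 and 3, 0 and 3 on day 14, where all tested genes had 32.7%, 28.3% and 25.4% on day 6 and 20.2%, 6.19% and 8.51% on day 14. DESeq2 called 1 member, Aff1 for BN1 on day 6. Groups did not overlap for 1, 1 and 3 members on day 6 (33.6%, 32.3% and 35% of all tested genes) and for 3, 0 and 3 on day 14 (28.1%, 9.32% and 16.8%). The comparisons of a day share libraries, those with control and those with each fusion.

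Among the scaffolds, Aff1 was the one nearest to a call on day 6. It had 163, 148 and 179 CPM in control libraries 1 to 3, 210, 185 and 217 in BN1, and 217, 202 and 177 in AFFN1. All 3 BN1 libraries lay above all control libraries, as they did for 33.6% of tested genes in either direction, while AFFN1 library 3 lay within the control range. The log2 fold change was 0.31 (SE 0.11, adjusted p = 0.069) for BN1 and 0.28 (SE 0.10, adjusted p = 0.112) for AFFN1, 1.24-fold and 1.21-fold. BN1 and AFFN1 differed by 0.03, with a 95% interval from -0.20 to 0.26 and an adjusted p of 0.90, so Aff1 was not detectably higher in the cells that carry the AFF1 fusion than in those that carry the BRD9 fusion. The call depended on a control library: without day 6 control library 3, the one with the higher immediate early sum, Aff1 passed for BN1 (0.40, adjusted p = 0.021) and for AFFN1 (0.36, adjusted p = 0.0419). Without both day 6 libraries of high immediate early genes it passed for AFFN1 (0.36, adjusted p = 0.038) and missed for BN1 (0.34, adjusted p = 0.0512), and DESeq2 called it for BN1 (adjusted p = 0.0304). Calls over all genes rose as well, from 2095 to 3495 for BN1 without control library 3. Without both of those day 6 libraries they rose from 1528 to 2352 for AFFN1. The part of the immediate early genes in these values was not tested.

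On day 14 the values of Aff1 were 184, 204 and 184 CPM in control libraries 1 to 3, 254, 252 and 232 in BN1, and 197, 207 and 154 in AFFN1. The BN1 libraries did not overlap with the control or the AFFN1 libraries, which held for 28.1% and 16.8% of tested genes. Without the block the log2 fold change was 0.35 (SE 0.14, adjusted p = 0.193) against control and 0.40 (adjusted p = 0.53) against AFFN1. With the replicate number as a block the adjusted p was 0.0682 and 0.141, and neither was called in either fit. AFFN1 against control was -0.05 without the block, with an interval from -0.35 to 0.25. From day 6 to day 14 the AFFN1 effect on Aff1 moved by -0.32 (interval -0.68 to 0.04, adjusted p = 0.598), so a change of that effect between the days was not shown.

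Aff3, a scaffold first described as a lymphoid nuclear protein, varied more between control libraries than the other scaffolds. On day 6 it had 128, 103 and 168 CPM in control, 186, 175 and 158 in BN1 and 152, 140 and 122 in AFFN1 libraries 1 to 3. Control library 3 alone reached into the BN1 range. With all libraries the BN1 log2 fold change was 0.36 (SE 0.16, adjusted p = 0.14). Without control library 3 it was 0.58 (adjusted p = 0.00695). Without the day 6 control and BN1 libraries numbered 3 it was 0.64 (adjusted p = 0.00751). Whether Aff3 was called thus depended on 1 library. The change was not particular to Aff3: without control library 3 the calls over all genes rose from 2095 to 3495. On day 14 it had 114, 199 and 175 CPM in control, 213, 238 and 257 in BN1 and 147, 224 and 204 in AFFN1. Here the libraries numbered 1 of control and AFFN1 were the lowest of their groups, and all BN1 libraries lay above all controls.

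Aff4, widely regarded as the central scaffold of the complex, had 107, 108 and 135 CPM in control, 134, 116 and 146 in BN1 and 148, 124 and 115 in AFFN1 libraries of day 6, which overlap. On day 14 it had 66.9, 83.3 and 57.2 CPM in control, 114, 90.5 and 93.6 in BN1, and 79.8, 78.8 and 65.5 in AFFN1. All BN1 libraries of that day lay above all control and all AFFN1 libraries. Without a block for the replicate number, the day 14 BN1 fold changes of Aff3 and Aff4 were 0.52 (adjusted p = 0.22) and 0.51 (adjusted p = 0.144) on the log2 scale. Libraries of day 14 with the same number deviated together, and with the number as a block both were called: Aff3 at 0.55 (SE 0.13, adjusted p = 0.0268) and Aff4 at 0.52 (SE 0.13, adjusted p = 0.0351). These are 2 of 10 members beside the 11.6% of all tested genes. It called no member for AFFN1 against control (background 0.558%) or for BN1 against AFFN1 (0.18%). Neither gene was called with the block when the libraries of 1 number were left out, with adjusted p from 0.0747 to 0.168 for Aff3 and from 0.0613 to 0.193 for Aff4. Beside these values, immediate early genes summed to 349 to 401 CPM in BN1 and 226 to 290 in control libraries of day 14, and B-lineage genes to 10038 to 11725 and 7070 to 10279 CPM. The myeloid sum was 39.0 to 67.9 CPM in BN1 and 16.6 to 36.6 in control, and the T and NK sum 11.0 to 17.1 and 5.51 to 7.80, with no overlap. Both sums rested on few genes, and the median gene of either list had at most 0.0663 CPM in these libraries. In library 1 of BN1 and of control, 6 of the 7 T and NK genes were at 0, so those sums came from the remaining gene. The part of these markers in the result was not tested. In these bulk samples, more cells of a type and more RNA per cell cannot be told apart.

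The cyclin Ccnt2 had, on day 14, 43.9, 60.2 and 68.5 CPM in BN1 libraries 1 to 3, 37.2, 45.9 and 49.8 in control and 34.4, 40.6 and 41.6 in AFFN1. BN1 lay above AFFN1 in all libraries and overlapped with control. Its log2 fold change was 0.36 against control (adjusted p = 0.296, 0.0702 with the block) and 0.56 against AFFN1 (adjusted p = 0.516, 0.0719 with the block), and it was not called. Ccnt1, the other T-type cyclin, had log2 fold changes from -0.14 to 0.15 in the 6 comparisons. Cdk9, the kinase they activate, had -0.17 to 0.11, with the lowest for BN1 against AFFN1 on day 6 (interval -0.33 to -0.02, adjusted p = 0.157). Ell, an elongation factor, had -0.04 to 0.12, with intervals between -0.23 and 0.37. Mllt1 had -0.05 and -0.25 for BN1 against control on day 6 and day 14, and Mllt3 0.25 and 0.01. For BN1 against AFFN1 on day 6 Mllt3 had 0.37 (interval 0.05 to 0.69, adjusted p = 0.137) and was not called. Those 2 groups did not overlap, as for 35% of all tested genes. Ell2, best known for its role in antibody-secreting cells, was the least precise, with -0.29 (interval -0.64 to 0.06) and -0.36 (interval -1.12 to 0.41) for BN1 on the 2 days. No difference of a fusion's effect between the days was called: 0 of 20 passed the test by edgeR, against 2.97% of all genes for BN1 and 1.46% for AFFN1. At an unadjusted p under 0.05 in that test it was also 0 of 20, against 13% and 9.71% of all genes. DESeq2 called 0 as well.

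**Figure D2:**
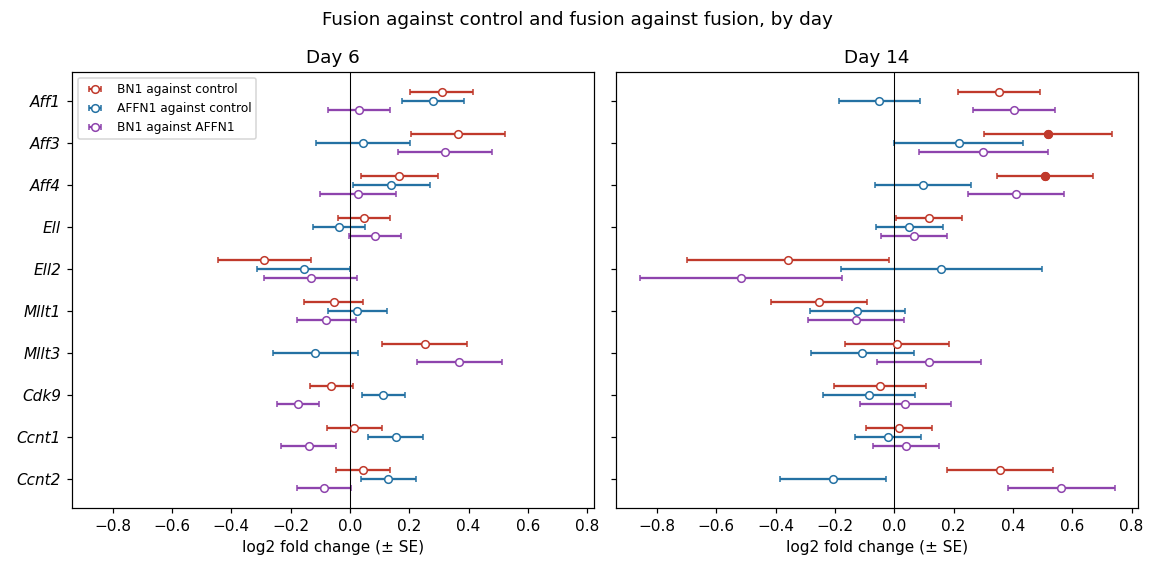
Log2 fold change ± SE of each gene for BN1 against control, AFFN1 against control and BN1 against AFFN1 on day 6 and day 14, fitted without the replicate block. Filled symbols, Aff3 and Aff4 on day 14, mark the values called when the replicate number was a block, and no value was called without it.

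Fold changes moved with transcript length, which was looked at after the data were seen. Between BN1 and control the median log2 fold change of all tested genes rose with the length of the longest transcript, from -0.12 under 2 kb to 0.16 over 8 kb on day 6, and from -0.14 to 0.18 on day 14. AFFN1 against control went from -0.08 to 0.10 on day 6 and had -0.03 in both classes on day 14. Aff4 (10.1 kb), Aff1 (8.32 kb), Ccnt2 (7.64 kb), Ccnt1 (7.4 kb), Mllt3 (6.07 kb) and Aff3 (6.01 kb) are the long members. On day 14 the BN1 values of Aff1, Aff3 and Aff4 (0.35, 0.52 and 0.51) lay above the median of their class (0.18, 0.13 and 0.18), as did that of Ccnt2 (0.36 against 0.13), while Ccnt1 (0.02) and Mllt3 (0.01) lay below it (0.13). On day 6 Aff1 (0.31 against 0.16) and Aff3 (0.36 against 0.06) lay above the median of their class, and Aff4 (0.17) was at it (0.16). Mllt3 (0.25 against 0.06) also lay above it, and Ccnt1 (0.01) and Ccnt2 (0.04) lay below it (0.06). Genes over 8 kb were above the mean of the day in all 3 BN1 libraries of day 14 (by 0.06 to 0.19 on the log2 scale) and lowest in control library 3 (-0.18) and AFFN1 library 3 (-0.21). The part of length in the values of the members was not tested.

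**Figure D3:**
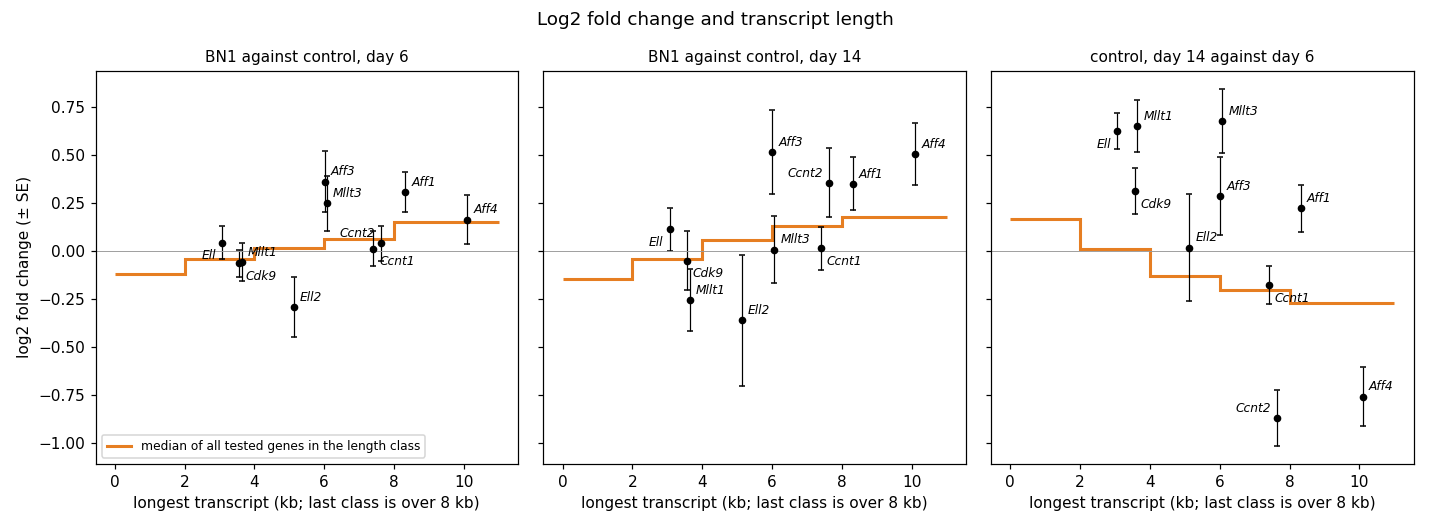
Log2 fold change ± SE of each gene against the length of its longest transcript (kb) for BN1 against control on day 6 and on day 14 and for control cells of day 14 against day 6. The orange steps are the medians of all tested genes by length class: they rise with length for BN1 (to 0.16 and 0.18) and fall for the days (to -0.27).

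Between the days members were called in both directions. In control cells 6 of 10 were called, where the background was 43.9% of 12567 tested genes: Ell, Mllt1, Mllt3 and Cdk9 rose by day 14 and Aff4 and Ccnt2 fell. A share of 6 in 10 against 43.9% is near the background and is not a result about the complex. The same contrast in BN1 cells and in AFFN1 cells, added after the data were seen, called 6 members each, 4 higher and 2 lower in BN1 and 3 and 3 in AFFN1 cells (backgrounds 48.2% and 47.8%). Ell, Mllt1, Mllt3, Aff4 and Ccnt2 were called in the same direction in all 3 kinds of cell, which do not share libraries but share 1 fit. The labels name the samples of day 6 and of day 14 in different ways, so the day and a possible separate experiment cannot be told apart.

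Of the genes that rose, Ell had the smallest standard error. It had 30.2 to 33.0 CPM in control, 30.9 to 34.1 in BN1 and 28.2 to 32.1 in AFFN1 libraries of day 6, and 44.9 to 53.3, 51.4 to 54.7 and 47.7 to 52.8 on day 14. No library of one day reached the range of the other. The rise was 1.54-fold in control (log2 0.63, SE 0.09, adjusted p = 6.85e-05), 1.63-fold in BN1 and 1.66-fold in AFFN1 cells. Mllt1 had 92.9, 91.2 and 73.3 CPM in control libraries of day 6 and 143, 133 and 129 on day 14, a rise of 0.65 on the log2 scale (adjusted p = 0.00111). Its rise was 0.46 (adjusted p = 0.0111) in BN1 and 0.51 (adjusted p = 0.00536) in AFFN1 cells, where the day 14 library 3 was low, at 98.8 CPM. Mllt3 had 23.8, 20.9 and 27.9 CPM on day 6 and 35.0, 48.0 and 33.5 on day 14 in control cells, a log2 change of 0.68 (adjusted p = 0.00376). It rose by 0.44 in BN1 (adjusted p = 0.0388) and 0.70 in AFFN1 cells (adjusted p = 0.00284). Both YEATS-domain genes were therefore higher on day 14 in each kind of cell, with no overlap between the days, as for 51.1%, 61.4% and 56.8% of tested genes in control, BN1 and AFFN1 cells. In BN1 cells the call of Mllt3 was lost without day 6 library 1 or 2 or day 14 library 1 or 3 (adjusted p up to 0.178), and that of Mllt1 without day 14 library 2 (adjusted p = 0.0705).

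Cdk9 was called in control (136, 125 and 131 CPM on day 6, 165, 147 and 177 on day 14) and in BN1 cells, with log2 changes of 0.32 (adjusted p = 0.0404) and 0.34 (adjusted p = 0.0282). In AFFN1 cells its log2 change was 0.13 (adjusted p = 0.385). The control call was lost in 7 of 11 alternatives, with adjusted p up to 0.14, without each of the 3 day 6 control libraries and without day 14 control library 1 or 3 among them. In BN1 cells it was lost in 5 of 11, without day 6 library 2 or 3 or day 14 library 2 or 3 among them. Cdk9 was thus the member whose call failed most often.

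Of the genes that fell, Ccnt2 changed most. It had 73.7, 82.9 and 85.7 CPM in control libraries of day 6 and 37.2, 45.9 and 49.8 on day 14, a 1.82-fold fall (log2 -0.87, SE 0.15, adjusted p = 0.000214). In BN1 cells it went from 92.6, 79.0 and 80.3 to 43.9, 60.2 and 68.5 CPM (log2 -0.55, adjusted p = 0.00594). In AFFN1 cells it went from 89.7, 83.7 and 92.9 to 34.4, 40.6 and 41.6 CPM, a 2.28-fold fall (log2 -1.19, adjusted p = 9.35e-06). No library of one day overlapped with the other day. Ccnt1 was called in AFFN1 cells (from 117, 108 and 113 to 97.2, 87.5 and 81.8 CPM, log2 -0.34, adjusted p = 0.00881). Its change was -0.18 in control and -0.17 in BN1 cells, and the difference between AFFN1 and control cells was not called (-0.17, adjusted p = 0.838).

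Aff4 fell by 0.76 on the log2 scale in control cells (adjusted p = 0.000933), by 0.41 in BN1 (adjusted p = 0.0358) and by 0.79 in AFFN1 cells (adjusted p = 0.000562). The differences between these falls were not called (BN1 against control 0.34, adjusted p = 0.558). In BN1 cells the call of Aff4 was lost in 5 of 11 alternatives, without day 6 library 1 or 3 or day 14 library 2 or 3 among them, with adjusted p up to 0.132. Aff1, Aff3 and Ell2 were not called between the days in any kind of cell. Aff1 had log2 changes of 0.22, 0.27 and -0.10 in control, BN1 and AFFN1 cells (DESeq2 called it in BN1 cells, adjusted p = 0.0485), and Aff3 0.29, 0.45 and 0.48. Without the day 14 control and AFFN1 libraries numbered 1 Aff3 was called in all 3, at 0.52 (adjusted p = 0.0156), 0.45 (adjusted p = 0.0171) and 0.65 (adjusted p = 0.00353). Ell2 had 0.02, -0.04 and 0.35, with an interval from -0.57 to 0.61 in control cells. The 2 libraries left out for Aff3 had its lowest values of their groups (114 and 147 CPM), so leaving them out raises its day 14 mean there. Neither is a BN1 library: the BN1 value stayed at 0.45 and its SE went from 0.203 to 0.145. That fit called 6626 of all genes in BN1 cells, against 6063 with all libraries. The calls of Aff3 in it are therefore not read as a result. Of the AFF-family scaffolds, only Aff4 was called between the days by edgeR with all libraries, lower in all 3 kinds of cell.

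Length and cell markers moved with the days too. In control cells the median log2 change was 0.17 under 2 kb, 0.01 from 2 to 4 kb, -0.20 from 6 to 8 kb and -0.27 over 8 kb. The falls of Ccnt2 (-0.87) and Aff4 (-0.76) were larger than the median of their classes, and Ccnt1 (-0.18) was close to it. The rise of Mllt3 (0.68, at 6.07 kb) went the other way, as did the changes of Aff1 (0.22) and Aff3 (0.29), which were not called. B-lineage genes summed to 5205 to 7072 CPM in the 9 libraries of day 6 and to 7070 to 13503 CPM on day 14. In control cells the myeloid sum went from 57.0 to 150 CPM on day 6 to 16.6 to 36.6 on day 14, and the T and NK sum from 15.4 to 33.4 to 5.51 to 7.80. The erythroid sum of control cells went from 1.5 to 1.9 CPM to 6.46 to 36.0, and the immediate early sum from 313 to 744 to 226 to 290. None of these 4 sums overlapped between the days in control cells. The T and NK sum rested on few genes: in control library 1 of either day, 6 of the 7 were at 0. The part of length and of these markers in the changes of the members was not tested.

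**Figure D4:**
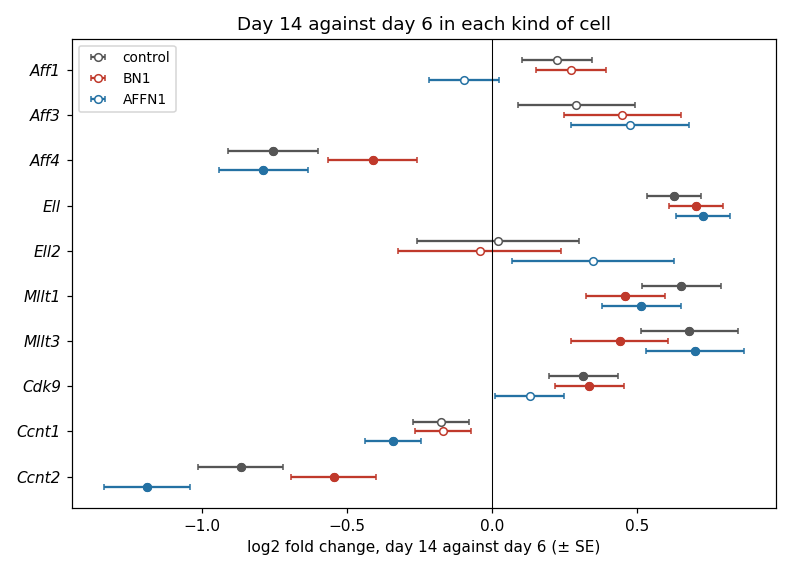
Log2 fold change ± SE between day 14 and day 6 in control, BN1 and AFFN1 cells, with filled symbols where edgeR called the change. Ell, Mllt1 and Mllt3 are called higher and Aff4 and Ccnt2 lower in all 3 kinds of cell, and Ccnt1 is called lower in AFFN1 cells.

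The other genes of transcription elongation were taken from 7 lists with 37 genes in the table, of which 36 were tested (Aff2, a further scaffold of the family, was too low). On day 6 the share of list genes called between groups was below the 17.4%, 12.7% and 11.2% of all tested genes. Of the 36, 1 was called for BN1 against control, 3 for AFFN1 against control and 2 for BN1 against AFFN1. Higher in BN1 than in control was Mllt10, a cofactor of the histone methyltransferase DOT1L (121 against 97.8 CPM, log2 0.29, adjusted p = 0.0343). In AFFN1 cells Ctr9, a subunit of the PAF1 elongation complex, was higher, and Larp7, a 7SK RNA-binding protein (-0.34, adjusted p = 0.0127), and Ice1 of the little elongation complex (-0.34, adjusted p = 0.0183) were lower. Ctr9 was 1.98-fold higher, at 199, 189 and 172 CPM in AFFN1 against 99.96, 99.97 and 81.8 in control libraries (log2 0.99, adjusted p = 0.00369). It was called in all 12 alternatives, while Mllt10 was called in 6, Larp7 in 8 and Ice1 in 8 of 12. On day 14 Ctr9 had 123, 84.1 and 63.7 CPM in AFFN1 and 106, 82.9 and 69.1 in control libraries, which overlap. The change of its AFFN1 effect between the days was not called (-0.92, adjusted p = 0.21) without the block and was with it (-0.95, adjusted p = 0.014). Between BN1 and AFFN1 on day 6, Ell3, a further ELL family member, was lower (1.85 against 3.82 CPM, log2 -1.05, adjusted p = 0.0217) and Ice1 higher in BN1 (log2 0.31, adjusted p = 0.0297). Ell3 was called in 7 and Ice1 in 6 of 12 alternatives, and no list gene was called without BN1 library 2 or 3, without AFFN1 library 1 or 2, or with all 18 libraries in the fit.

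No gene of the 7 lists was called on day 14 in the edgeR fit of the 9 libraries of that day without the block. For BN1 against control, DESeq2 called 1 (higher) and the edgeR fit on all 18 libraries, also without the block, 2 (lower). The shares of all tested genes in those fits are not given here. With the block on the 9 libraries, 3 were called for BN1 against control. Kmt2a, the MLL gene itself, was higher (277 against 173 CPM, log2 0.69, adjusted p = 0.0216). Nelfe, a subunit of the pausing factor NELF (-0.55, adjusted p = 0.041), and Wdr61, a subunit of the PAF1 complex (-0.46, adjusted p = 0.0485), were lower. These 3 of 36 stand beside the 11.6% of all genes that the block called. Of the 36 genes, 1 was called with the block without the libraries numbered 1, and 0 without those numbered 2 or 3.

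Between the days in control cells 13 of 36 were higher and 7 lower, where 22.4% and 21.4% of all tested genes were called in each direction. All 3 listed genes of the little elongation complex, which acts at small nuclear RNA genes, fell: Zc3h8 by 1.29, Ice2 by 0.95 and Ice1 by 0.73 on the log2 scale. All 3 were also called lower in BN1 and in AFFN1 cells and in each of the 11 alternatives. Ell, counted here among the members and not in that list, rose (0.63 in control cells), so these falls do not describe every ELL-linked gene. Of the 4 genes of the 7SK particle, which holds P-TEFb inactive, Mepce (0.85) and Larp7 (0.42) rose and Hexim1 and Hexim2 were not called. Of 6 pausing factors, the NELF subunits Nelfa (1.1) and Nelfe (0.86) rose and the DSIF subunit Supt5 fell by 0.23. Of 6 other polymerase kinases and cyclins, Ccnk, the cyclin of CDK12 and CDK13, rose most, from 65.5 to 180 CPM (log2 1.46, adjusted p = 6.70e-08), followed by Ccnh (0.80) and Cdk13 (0.25). Of the 8 genes of the PAF1 complex, Spt6 and Iws1, 2 rose (Rtf1 by 0.76 and, named after its value was seen, Supt6 by 0.26) and 2 fell (Cdc73 by 0.68, Iws1 by 0.54). Men1 (0.82) and Dot1l (0.52) rose in the list of DOT1L and KMT2A partners. Among further genes tied to the super elongation complex, Ell3 (1.62) and Med26 (0.46) rose and Eaf1, which binds ELL, fell by 0.71. BN1 cells had 10 higher and 10 lower of 36, and AFFN1 cells 10 and 8, where 24.2% and 24% of all tested genes were called in each direction in BN1 cells and 24.4% and 23.5% in AFFN1 cells. The control calls of Supt6, Supt5, Cdk13, Larp7 and Dot1l were lost in 3 to 7 of 11 alternatives, and the other 15 in none.

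**Figure D5:**
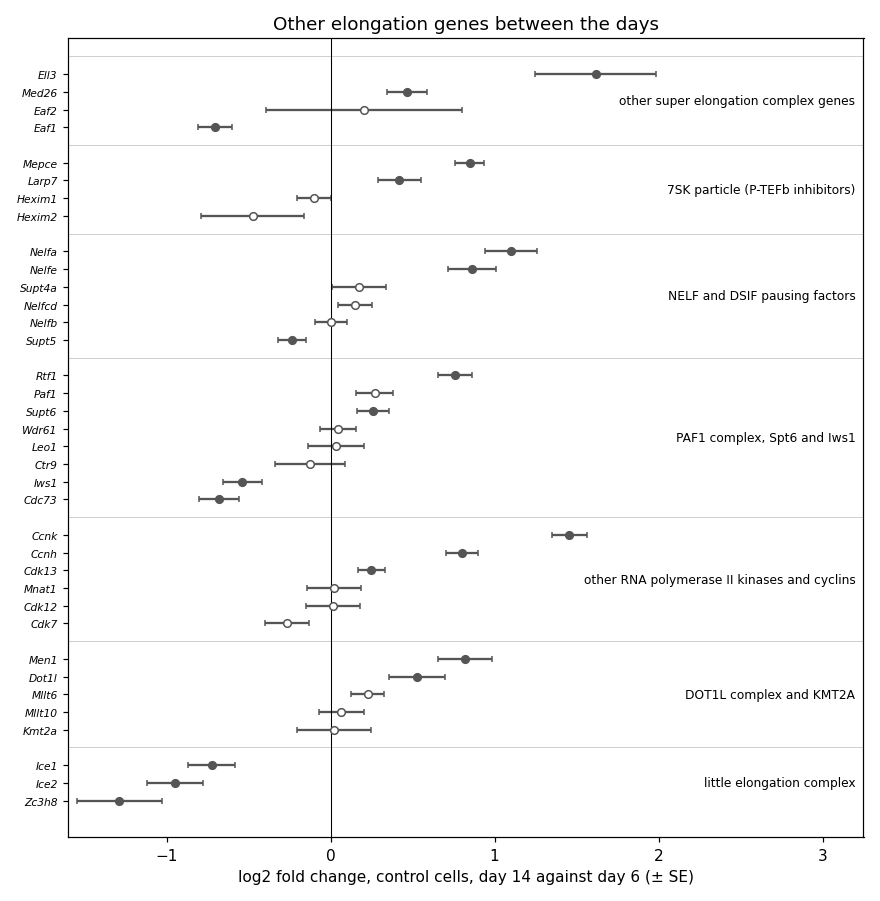
Log2 fold change ± SE between day 14 and day 6 in control cells for the 36 tested genes of 7 lists, with filled symbols where edgeR called the change. The 3 little elongation complex genes lie between -0.73 and -1.29, while Ell3 (1.62) and Ccnk (1.46) are the highest.

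After the mean of each day was subtracted, the genes most like Aff1 over the 18 libraries were Gpbp1l1 (Pearson's r = 0.94), Kdm3a (0.92), Kdm3b (0.91), Rictor (0.90) and Akap13 (0.90), among 9580 genes compared. Kdm3a and Kdm3b are histone H3K9 demethylases. Within the complex Aff1 and Aff4 were the most alike pair (0.85), and Aff3 and Mllt1 the least (-0.54). The genes most like Aff4 were Cep170, Map3k2, Hipk1, Med13 and Tns3 (0.91 to 0.93). Those most like Ccnt2 were Smim15, Rbm5, Clk4, Slc25a40 and Neat1 (0.86 to 0.90). For Mllt1 they were Cpsf4, Ranbp3, Mcm2, Trim65 and Mcm5 (0.85 to 0.92), of which Mcm2 and Mcm5 encode subunits of the replicative helicase. For Mllt3 they were Stag2, Stau2, Nr3c1, Ensa and Dyrk1a (0.82 to 0.87), and for Cdk9 Bet1l, Idnk, Alyref2, Dynll1 and Trp53cor1 (0.83 to 0.86). Ell (Zfyve27, 2610001J05Rik, Inppl1, Acot11 and Trim35, 0.66 to 0.70) and Ccnt1 (Tex9, Hltf, Rbm6, Rnf168 and Adam17, 0.72 to 0.79) had no gene above 0.79. All these points share libraries and depth, and the values are a description.

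The members share little sequence with other genes. No stretch of 50 bases of the longest Aff1, Aff3, Aff4, Ell, Mllt1, Ccnt1 or Ccnt2 transcript occurred in a transcript of another gene, and 1.6% of such stretches in Ell2 (a snoRNA in its exon), 0.313% in Cdk9 and 0.0498% in Mllt3 did. The longest runs that the coding sequences of related members share are shown to compare their lengths with those stretches. Aff1 and Aff4 share 20 bases (from base 1426 of the Aff1 coding sequence), Ccnt1 and Ccnt2 20 (from base 655 of Ccnt1), and Mllt1 and Mllt3 17 (from base 133 of both).
Aff1 and Aff4: gagagtgagagcagctccag
Ccnt1 and Ccnt2: aagcactggtgggagtatgt
Mllt1 and Mllt3: cagcactttgtggagaa
Exons of Ccnt1 overlap with those of the antisense gene 9330020H09Rik and exons of Ell2 with 1700037F03Rik, also antisense. The library kit keeps the strand, but the strand setting of the counting is not given in the sources used here, so the values of Ccnt1 and Ell2 are less certain than the rest. Exons of Cdk9 hold the microRNA genes Mir2861 and Mir3960 on the same strand.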

How the data were processed

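The authors deposited 1 table of expected counts per gene for the 18 libraries, and the submitters' processing notes name STAR, RSEM, DESeq2 and mm10. Tool versions, the annotation and whether counting used strand were not given in the sources used here. Values that were not whole (1.74 to 2.12% in a library) were rounded.

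In R 4.3.3, genes were filtered with filterByExpr, scaled by TMM and tested with edgeR 4.0.16's quasi-likelihood test (robust, two-sided, Benjamini-Hochberg over all tested genes, called at an adjusted p under 0.05). Within-day comparisons used the 9 libraries of the day, and the others all 18. There were 9 planned comparisons and 2 added ones. Intervals of fold changes are 95%. The code was tested on simulated data. DESeq2 1.42.0, other scaling, no filter, a replicate block, all 18 libraries, and fits without libraries were the alternatives. Likeness is Pearson's r of log2 CPM (prior count 2) with genes of at least 5 CPM. Coordinates and lengths are from GENCODE M21, which holds 99.8% of the gene identifiers.

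The members, the 7 lists and the naming rule were chosen with earlier results of these data known. The rule names all members, up to 3 called genes per list and comparison, and the 5 genes most like Aff1 and like each called member.

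The labels of day 14 carry a code shared by libraries with the same number, and there same-numbered libraries deviated together (r from 0.261 to 0.599 in 9 pairs, against -0.474 to 0.0325 for other pairs), so the numbers pair the samples. On day 6 they did not (r from -0.299 to 0.332). No 2 libraries of a group agreed within sampling noise (chi-square per degree of freedom at least 3.97). One gene of a marker list is not reported here and was left out of its sum.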

Additional observations from a re-analysis of the deposited data

How the results depend on the processing

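Of 1500 member values under the alternatives, 1459 kept their direction and their side of the threshold, 22 lost and 14 gained a call, and 5 changed direction (direction is read where a value is called or larger than its standard error). Signs changed in 124, none of them called in either fit. For BN1 against control on day 6, 1 member was called by DESeq2 and 1 without the day 6 control and BN1 libraries numbered 3. When each library was left out in turn it was 0 to 2. The 2 were called without control library 3, where 3495 of all genes were called against 2095 with all libraries. For AFFN1 against control on day 6 it was 1 without the day 6 control and BN1 libraries numbered 3, where 2352 of all genes were called against 1528. It was 0 to 1 when each library was left out (1 without control library 3). These member counts are not a result about the complex. For BN1 against control on day 14, 2 members were called with the replicate block. The block changed no other call of a member. For BN1 cells between the days 3 to 5 were called when each library was left out, with 3 without day 14 library 2 or 3, against 6. Ell2 for AFFN1 on day 6 was 0.0103 without the libraries numbered 3 (leaving each out in turn, -0.288 to 0.00944), and Ell2 between the days in AFFN1 cells was -0.00956 without the day 14 libraries numbered 1 (-0.0114 to 0.613). Cdk9 between the days in AFFN1 cells ranged from -0.0256 to 0.226 when each library was left out. The causes were not tested.

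Counts over all genes ran from 1032 to 3495 for BN1 on day 6 (2095 reported), from 676 to 2352 for AFFN1 (1528) and from 624 to 1791 for BN1 against AFFN1 (1349). With the replicate block on day 6, where the numbers did not pair the libraries and not every library correlated best with its own number, they were 1801, 1347 and 1233. On day 14 they ran from 1 to 1348 (3), 0 to 263 (5) and 0 to 124 (0), the last with 992 genes at an unadjusted p under 0.05. For the change of an effect between the days they ran from 224 to 649 (373) for BN1 and from 110 to 342 (183) for AFFN1. No count over all genes moved by over 1.5 times for the days within a kind of cell. A replicate block for the days within a kind of cell was not run, since the numbers are nested in the day. Ell2 had the fewest reads of the members, 189 to 539 in a library, and the widest intervals.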
